A study of Homo sapiens with 12 samples.

Results

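Collagens, laminins and integrins form 1 system at the cell surface: collagens and laminins are secreted into the extracellular matrix, and integrins are the receptors that hold a cell to it. The genes were taken from the deposited gene table as protein-coding genes named as a collagen chain, a laminin alpha, beta or gamma chain, an integrin alpha chain or an integrin beta chain. This gave 82 of 58907 genes: 44 collagens, 12 laminins, 18 integrin alpha chains and 8 integrin beta chains. Of these, 44 had enough counts to be tested, among 15252 genes tested in all: 16 collagens, 6 laminins, 16 alpha chains and 6 beta chains.

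The study asked how monocyclohexyl phthalate (MCHP), a monoester of phthalic acid, acts on macrophage polarization. The cells were (PPRE)-eGEP-THP-1, which derive from THP-1, a line of human leukaemic monocytes, and their polyadenylated RNA was sequenced. The 12 libraries fell into 4 groups of 3, which the series text calls biological replicates: M1 DMSO, M1 MCHP, M2 DMSO and M2 MCHP. All 4 groups had received phorbol 12-myristate 13-acetate (PMA) at 25 ng/mL for 48 h and then 24 h of rest, so no group shows the cells without PMA. M1 cells then received lipopolysaccharide at 100 ng/mL with interferon gamma at 20 ng/mL, and M2 cells received interleukin 4 and interleukin 13, each at 20 ng/mL, for 24 h. MCHP at 100 µM or its solvent DMSO was present during those 24 h. The model is a single leukaemia-derived line, and the labels name its cell type as monocyte. Results hold for this line under PMA, and the labels do not expand PPRE or eGEP.

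A collagen molecule is a triple helix of alpha chains, either identical or from different genes, that assembles into fibrils, networks or filaments. A laminin is a cross-shaped trimer of an alpha, a beta and a gamma chain, and a main component of basement membranes. An integrin is a pair of an alpha and a beta chain. The beta2 chain (ITGB2) pairs with the leukocyte chains ITGAL, ITGAM, ITGAX and ITGAD, and beta1 (ITGB1) pairs with most chains that bind collagen, laminin or fibronectin. Macrophages are known for beta2 integrins, which bind ICAM proteins and complement fragments, and for secreting collagen VI.

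Depth was 14352202 to 16871233 counts per library, and the 82 genes took 1.27% to 1.65% of them. Levels are CPM, a library's counts as a share of its total, scaled with TMM factors, and levels of different genes are compared only as CPM per kb of gene model. M2 DMSO replicate 1 was unlike replicates 2 and 3: a chi-square per degree of freedom over genes was 20.5 and 21.4 against them, and 2.26 between those 2. M2 MCHP replicate 3 stood apart less far, at 4.66 and 6.92 against replicates 1 and 2 and 2.35 between those. The pairs of the M1 groups were at 2.24 to 2.81. Among the macrophage markers, PTPRC, SPI1 and CSF1R were abundant, while CD68 had 36 counts and MRC1 had 2 counts in all 12 libraries. Whether the counting of overlapping or duplicated gene models lowered these counts was not tested, so they are not read as a lack of either RNA. The summed level of the 12 macrophage markers was 2441 to 2521 CPM in M1 DMSO and 1385 to 1397 CPM in M2 DMSO. In bulk RNA, fewer cells of a type and less RNA per cell cannot be told apart.

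Most collagen genes were silent or nearly so, and the collagen RNA of these cells was mainly collagen VI. Of the 82 genes, 38 did not have enough counts for a test: 10 had no count in any library, 10 had 1 to 9 counts and 18 had 10 or more, up to 68 for COL4A2 over all 12 libraries. The genes with no count were COL3A1, COL9A1, COL14A1, COL28A1, LAMA1, LAMA4, LAMB4, LAMC3, ITGA8 and ITGB6. A further 8 passed although at least 1 library was under 0.645 CPM: COL4A1, COL18A1, COL19A1, LAMB1, ITGA9, ITGA10, ITGA11 and ITGAD. Such a gene can pass through the group where it is high, so counts over the 44 genes tested describe those genes and not the families as a whole.

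Per kb, COL6A1 held 75.4% of the collagen level in M1 DMSO, 75.3% in M2 DMSO and 73.6% in M2 MCHP. COL6A2 followed with 9.97% in M1 DMSO and 10.2% in M2 DMSO, and COL5A3 with 5.09% and 6.59%. Laminin RNA was almost entirely LAMC1 and LAMB3, at 50.6% and 43.4% of the laminin level per kb in M1 DMSO. Among alpha chains ITGAX held 42.8% in M1 DMSO and 39.6% in M2 DMSO. Among beta chains ITGB2 held 72.6% in M1 DMSO and 71.2% in M2 DMSO. The chains of a known molecule were not always measured together. COL1A1, the alpha1 chain of collagen I, had 13714 counts over the 12 libraries, while COL1A2, its usual partner chain, had 17.

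Most of the tested genes differed between M1 and M2, with or without MCHP. Between M1 DMSO and M2 DMSO, 32 of the 44 passed the test (edgeR's quasi-likelihood F-test, Benjamini-Hochberg adjusted p under 0.05), 12 higher in M1 and 20 higher in M2. Of all genes tested 42.5% passed, 21.6% higher in M1 and 20.9% lower. The median log2 fold change of the 44 was -0.26, against -0.004 for all genes. The groups did not overlap for 31 of the 44, and for 49.5% of all genes tested. The split differed by family, as counts: collagens 3 higher in M1 and 8 higher in M2 of 16, laminins 4 and 0 of 6, alpha chains 3 and 10 of 16, and beta chains 2 and 2 of 6.

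**Figure D1:**
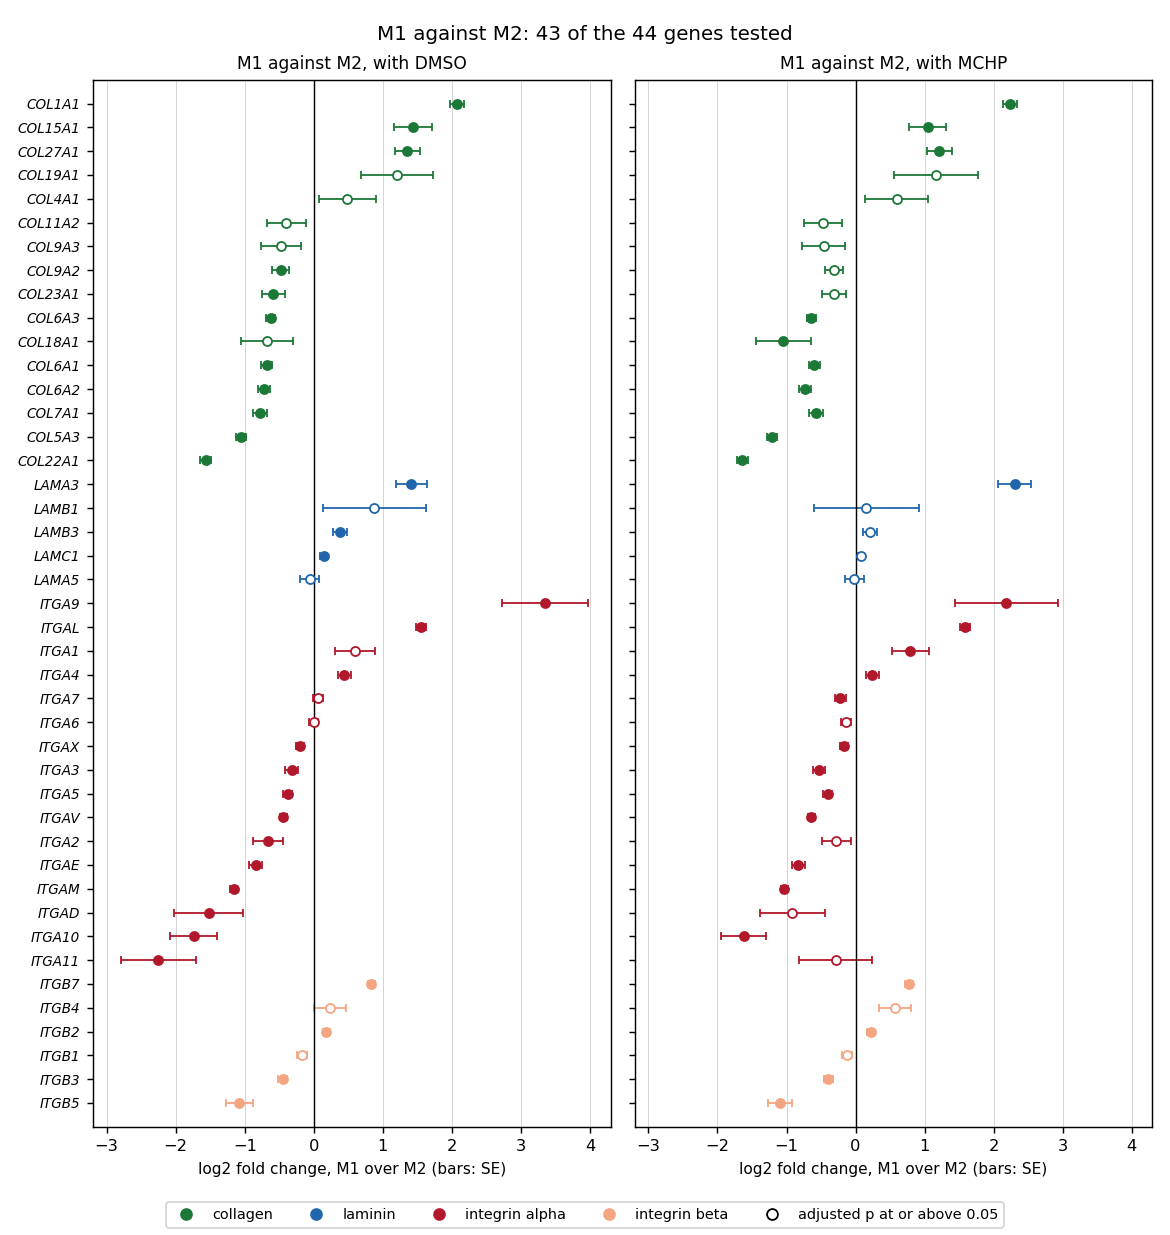
Log2 fold change of M1 over M2 (x axis) for 43 of the 44 genes tested (y axis), with DMSO on the left and with MCHP on the right; bars are SE, filled points passed at an adjusted p under 0.05, and colours mark the 4 families. The collagen VI chains and ITGAM lie left of 0 in both panels, COL1A1, LAMA3 and ITGAL lie right of 0 in both, and ITGA9 has the largest value with DMSO, 3.35, with an SE of 0.62. ITGA9 had enough counts for a test through M1 DMSO, where it was high.

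The 3 measured chains of collagen VI, a filament-forming collagen of the pericellular matrix, were all higher in M2. COL6A1 (chromosome 21, 45981737 to 46005050, build hg38) was at 1750, 1735 and 1693 CPM in the M1 DMSO libraries and 2253, 2988 and 3070 CPM in M2 DMSO. COL6A2 (chromosome 21, 46098097 to 46132849) was at 230.1, 225 and 236 CPM in M1 DMSO and 304, 419 and 412 CPM in M2 DMSO. COL6A3 (chromosome 2, 237324003 to 237414375) was at 174, 167 and 176 CPM in M1 DMSO and 238, 278 and 279 CPM in M2 DMSO. For each chain all 3 M2 libraries lay above all 3 M1 libraries, and M2 DMSO replicate 1 was the lowest of its group. The log2 fold changes, M1 over M2, were close to each other: -0.68 ± 0.082 (SE), -0.72 ± 0.088 and -0.62 ± 0.065 (edgeR adjusted p = 1.5e-06, 2e-06 and 2.5e-07). Without M2 DMSO replicate 1 they were -0.81, -0.85 and -0.69. The proportions of the chains varied little between libraries: per kb, COL6A1 over COL6A2 was 6.61 to 7.94 over the 12 libraries, and COL6A1 over COL6A3 was 32.9 to 40.4. COL6A5 and COL6A6, the chains that can replace COL6A3, had 2 and 21 counts over the 12 libraries.

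The bases before the start of COL6A2 are shown because it moved with its neighbour on the chromosome, COL6A1; they are 250 bases from RefSeq, build GRCh38.p14, plus strand, chr21:46097862-46098111, and hold no match to the motifs described later.
COL6A2: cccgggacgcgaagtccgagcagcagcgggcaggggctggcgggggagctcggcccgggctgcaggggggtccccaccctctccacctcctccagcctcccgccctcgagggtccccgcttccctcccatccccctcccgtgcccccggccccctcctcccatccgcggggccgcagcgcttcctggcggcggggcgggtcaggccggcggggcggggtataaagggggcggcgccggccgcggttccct
This stretch is 79.6% G or C, and the median over all 35116 promoters of the table, taken over the same 250 bases, is 58%.

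The fibrillar collagens went in both directions. COL1A1 (chromosome 17, 50183289 to 50201632), a main chain of connective tissue, was at 116, 114 and 118 CPM in M1 DMSO and 21.9, 29.4 and 31.5 CPM in M2 DMSO. COL5A3 (chromosome 19, 9959561 to 10010471), a minor collagen V chain that co-assembles with larger fibrils, was at 146, 148 and 148 CPM in M1 DMSO and 266, 317 and 336 CPM in M2 DMSO. In both genes the groups were far apart, but in opposite order: COL1A1 was higher in every M1 library and COL5A3 in every M2 library. Their log2 fold changes were 2.07 ± 0.10 (edgeR adjusted p = 4e-12) and -1.06 ± 0.071 (adjusted p = 5.3e-10). COL27A1, a cartilage-type fibrillar chain, was also higher in M1, at 7.68 ± 1.21 CPM (SD, n = 3) against 3.00 ± 0.659 CPM, a log2 fold change of 1.35 ± 0.18. COL11A2 did not pass (adjusted p = 0.27).

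Among the other collagens, COL22A1, a fibril-associated collagen known from tissue junctions, was at 41.5, 49.5 and 43.8 CPM in M1 DMSO and 131, 136 and 134 CPM in M2 DMSO. Every M2 library was far above every M1 library, and the log2 fold change was -1.57 ± 0.078 (edgeR adjusted p = 6.6e-12). COL7A1, the anchoring fibril collagen below epithelia, was higher in M2 (112 ± 12.8 against 64.8 ± 5.99 CPM, SD, n = 3, log2 -0.78 ± 0.10). COL9A2, a fibril-associated chain of cartilage, was at 24.0 ± 3.49 against 17.2 ± 0.616 CPM (log2 -0.48 ± 0.12). COL23A1, a transmembrane collagen, passed at -0.58 ± 0.17, but its groups overlapped, and without M1 DMSO replicate 3 the adjusted p was 0.057. COL15A1, a basement membrane collagen, went the other way, at 4.13 ± 1.197 CPM in M1 DMSO and 1.52 ± 0.225 CPM in M2 DMSO. Collagen IV, the network of basement membranes, was barely detected: its 6 chains together summed to 0.969 to 2.76 CPM in the DMSO libraries.

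**Figure D2:**
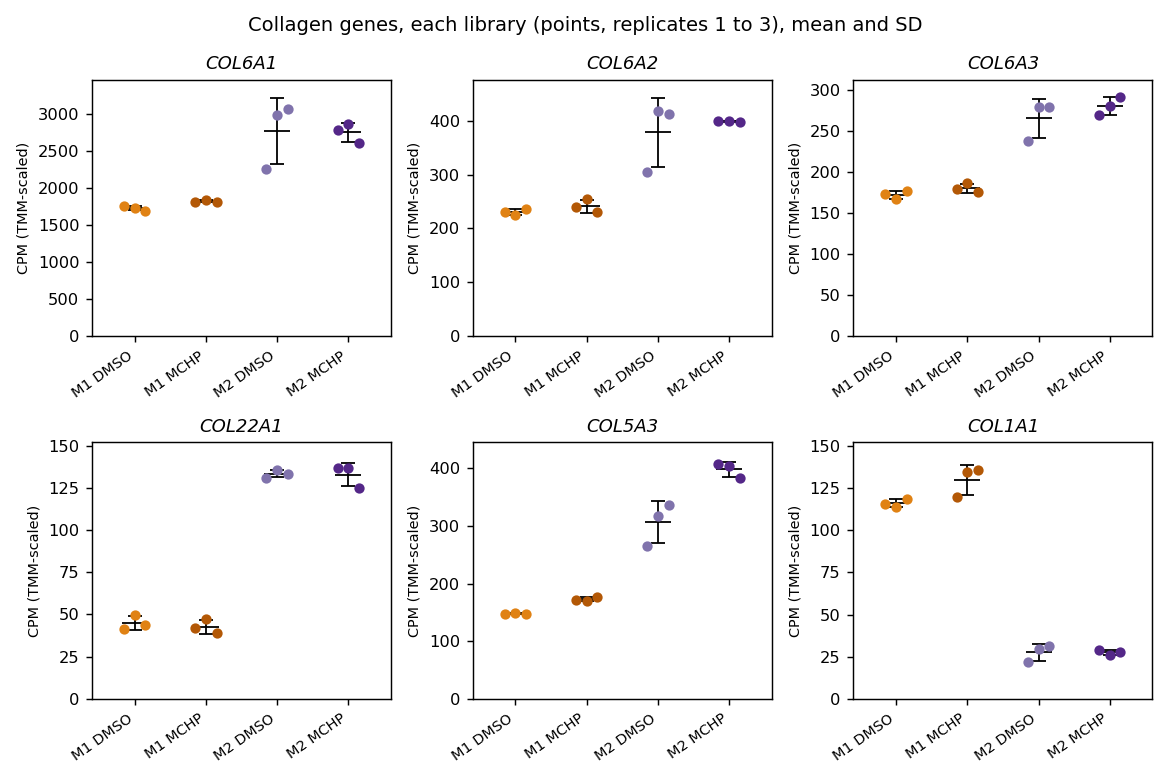
Level in TMM-scaled CPM (y axis) of 6 collagen genes in each library (points) of the 4 groups (x axis), with the mean and SD of each group. COL6A1, COL6A2, COL6A3, COL22A1 and COL5A3 are higher in both M2 groups, COL1A1 is higher in both M1 groups, and M2 DMSO replicate 1 is the lowest point of its group in all 6.

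The laminin genes that passed were all higher in M1. LAMA3 (alpha3) and LAMB3 (beta3) are chains of the laminin that anchors epithelia. LAMA3 was at 8.15, 6.61 and 5.98 CPM in M1 DMSO and 2.90, 2.41 and 2.45 CPM in M2 DMSO. LAMB3 was at 119, 104 and 102 CPM in M1 DMSO and 66.2, 88.9 and 94.0 CPM in M2 DMSO. The groups did not overlap for either gene, and the gap was narrow for LAMB3. Their log2 fold changes were 1.41 ± 0.22 and 0.38 ± 0.10 (edgeR adjusted p = 3.7e-05 and 0.0064). The chains were far from equal: per kb, LAMB3 was 49.4 times LAMA3 in M1 DMSO.

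LAMC1 (gamma1), the gamma chain of most basement membrane laminins, was at 228, 221 and 229 CPM in M1 DMSO and 201, 206 and 208 CPM in M2 DMSO. The groups did not overlap, but the difference was small, 0.14 ± 0.053 in log2, and the adjusted p of 0.043 passed under 5 of 19 alternative settings. Scaling by library size alone, which moved the median of all genes to -0.13, gave 0.011 for LAMC1. LAMA5 (alpha5), a partner of gamma1, did not pass, at 13.6 ± 0.387 CPM in M1 DMSO and 14.1 ± 2.73 CPM in M2 DMSO (SD, n = 3). No laminin beta chain that usually joins gamma1 was well measured: LAMB1 had 72 and LAMB2 20 counts over the 12 libraries. Markers of epithelial cells were near 0 in every library, with a summed level of at most 2.83 CPM over 7 genes and no count for EPCAM or KRT14.

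Among the leukocyte integrins, alphaL and alphaM went in opposite directions. ITGAL (chromosome 16, 30472658 to 30523185), the alpha chain of LFA-1, which binds ICAM proteins, was at 298, 289 and 301 CPM in M1 DMSO and 86.7, 114 and 103 CPM in M2 DMSO. ITGAM (chromosome 16, 31259967 to 31332892), the CD11b chain of complement receptor 3, was at 348, 357 and 364 CPM in M1 DMSO and 755, 814 and 823 CPM in M2 DMSO. The lowest M1 library for ITGAL and the lowest M2 library for ITGAM both lay well above all libraries of the other state. The log2 fold changes were 1.55 ± 0.075 and -1.16 ± 0.052 (edgeR adjusted p = 4.8e-12 and 1.5e-12). Per kb, ITGAM was 1.37 times ITGAL in M1 DMSO and 9.06 times in M2 DMSO (mean, n = 3). The 12 libraries ran from 1.33 to 1.40 in the M1 states and from 8.12 to 9.91 in the M2 states.

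The bases before the start of ITGAM are shown for this reversal, from RefSeq, build GRCh38.p14, plus strand, chr16:31259725-31259974. Capitals mark 2 matches: GAGGAA, the core letters of PU.1 sites, at bases -127 to -122 counted from the start, and TTC and GAA with 4 bases between, the spacing that STAT6 prefers, at bases -49 to -40.
ITGAM: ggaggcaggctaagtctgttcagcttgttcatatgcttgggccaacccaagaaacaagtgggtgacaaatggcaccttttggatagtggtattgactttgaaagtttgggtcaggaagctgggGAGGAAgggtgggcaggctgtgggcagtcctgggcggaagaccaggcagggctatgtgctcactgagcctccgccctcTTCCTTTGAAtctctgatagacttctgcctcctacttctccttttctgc
PU.1 is the myeloid factor encoded by SPI1, and STAT6 is the factor that interleukin 4 and interleukin 13 activate. A match is a description of the letters and not evidence of binding. In 300-base windows, both strands searched, GAGGAA was present in 27.9% of 35116 promoters and the STAT6 spacing in 6.44%. Of the 30 tested genes with a promoter in the table, 13 held the first and 2 the second, ITGAM and ITGA11. TGANTCA, the AP1 site, was in ITGA5 and LAMA3 (7.71% of all promoters). The direct repeat of AGGTCA with 1 base between, the DR1 element of PPAR receptors, was in none of the 30 (0.0228% of all).

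ITGAX (CD11c), the most abundant alpha chain per kb, was only slightly higher in M2. It was at 1688, 1695 and 1768 CPM in M1 DMSO and 1779, 2041 and 2110 CPM in M2 DMSO, so that the groups touched without overlapping. The log2 fold change was -0.20 ± 0.061 (edgeR adjusted p = 0.011), and it was lost without M2 DMSO replicate 3 (adjusted p = 0.065). ITGAE (CD103), which pairs with beta7 and binds E-cadherin, was at 12.2, 15.3 and 14.6 CPM in M1 DMSO and 26.2, 24.7 and 24.7 CPM in M2 DMSO, with no overlap and a log2 fold change of -0.84 ± 0.10 (adjusted p = 6.5e-07). ITGAD (alphaD) had only 13 counts over the M1 DMSO libraries and 43 over M2 DMSO. It had enough counts for a test through M2 DMSO, where it was high. Its call was lost under 3 of 19 alternatives, with an edgeR adjusted p of up to 0.094.

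Of the beta chains of these receptors, beta2 differed little and beta7 clearly. ITGB2 (chromosome 21, 44885953 to 44931989), the shared beta2 chain, was at 4964, 4916 and 4718 CPM in M1 DMSO and 3894, 4448 and 4519 CPM in M2 DMSO. The difference was small, 0.18 ± 0.057 in log2 (edgeR adjusted p = 0.014). With library size alone it was not called (log2 0.055, edgeR adjusted p = 0.41). Nor was it called in a fit of the DMSO libraries alone (adjusted p = 0.052) or without M1 DMSO replicate 1 (adjusted p = 0.055). ITGB7 (chromosome 12, 53191318 to 53207307), the partner of alpha4 and alphaE, was at 455, 414 and 420.3 CPM in M1 DMSO and 233, 244 and 247 CPM in M2 DMSO. Every M1 library was well above every M2 library, and the log2 fold change was 0.83 ± 0.055 (adjusted p = 3.9e-10). Its known partners differed in direction: ITGA4 was higher in M1 (49.0 ± 1.999 against 36.2 ± 4.04 CPM, log2 0.44 ± 0.10) and ITGAE was lower, as given above.

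The receptors of the RGD sequence, found in fibronectin and vitronectin, were higher in M2. ITGA5, which with beta1 forms the fibronectin receptor, was at 769, 728 and 710.3 CPM in M1 DMSO and 859, 1016 and 999 CPM in M2 DMSO. ITGAV, the alpha chain of the vitronectin receptors, was at 494, 482 and 499.9 CPM in M1 DMSO and 669, 678 and 657 CPM in M2 DMSO. All M2 libraries lay above all M1 libraries for both genes. The log2 fold changes were -0.38 ± 0.061 and -0.44 ± 0.049 (edgeR adjusted p = 4.6e-05 and 5e-07).

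Of the known beta partners of alphaV, beta3 and beta5 were also higher in M2, and beta1 did not pass. ITGB3 was at 83.6, 78.1 and 77.3 CPM in M1 DMSO and 108, 109 and 110.1 CPM in M2 DMSO. ITGB5 (chromosome 3, 124761948 to 124901418) was at 3.72, 2.43 and 3.37 CPM in M1 DMSO and 5.36, 7.77 and 6.96 CPM in M2 DMSO, from 141 and 339 counts in all. Neither gene's groups overlapped, and the log2 fold changes were -0.45 ± 0.061 and -1.08 ± 0.19 (edgeR adjusted p = 6e-06 and 0.00017). ITGB1, the common beta1 chain, was at 952, 929.5 and 926 CPM in M1 DMSO and 1227, 973 and 968 CPM in M2 DMSO, where replicate 1 was the highest. It did not pass (log2 -0.17 ± 0.073, adjusted p = 0.063). It passed under 5 of 19 alternatives: at -0.30 with library size alone (0.0032), with no filter (0.016), with the replicate block (0.049), and at -0.23 and -0.23 without M2 DMSO replicate 2 (0.023) or replicate 3 (0.019). ITGB6 and ITGB8, also known partners of alphaV, had 0 and 4 counts.

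The collagen receptors were all low, and with DMSO 3 of 4 passed, each higher in M2. With MCHP 1 of the 4 passed as higher in M2 and 1 as higher in M1. ITGA10 had 39 counts over M1 DMSO and 149 over M2 DMSO (log2 -1.74 ± 0.34), and ITGA11 had 11 and 61 (-2.26 ± 0.54). ITGA11 had enough counts for a test through the M2 DMSO libraries, where it was high. How far this shaped its call was not tested. ITGA2, best known from platelets, was at 3.45 ± 0.795 against 5.49 ± 1.49 CPM (SD, n = 3), and its call was lost under 4 of 19 alternatives. These were without M2 DMSO replicate 1, M1 DMSO replicate 2 or M1 DMSO replicate 3 (edgeR adjusted p = 0.1, 0.11 and 0.051), and the fit of the DMSO libraries alone. ITGA1 did not pass (log2 0.60 ± 0.29), and its gene model overlaps that of PELO, which had 4138 counts to 386 for ITGA1.

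Of the laminin receptors, ITGA3 was higher in M2 at 152 ± 24.4 against 122 ± 5.22 CPM, with overlapping groups (log2 -0.32 ± 0.089). ITGA6 and ITGA7 did not pass, at 203 ± 6.32 against 203 ± 4.05 CPM and 44.5 ± 1.94 against 42.8 ± 4.17 CPM in M1 and M2 DMSO. ITGA9, a receptor of tenascin and osteopontin, had the largest fold change of the 44 but very few counts. It had enough counts for a test through the M1 DMSO libraries, where it was high. How far this shaped its rank and p was not tested. ITGA9 was at 1.72, 1.08 and 1.08 CPM in M1 DMSO and 0, 0.294 and 0.0570 CPM in M2 DMSO, from 57 and 6 counts. The ratio of those counts, scaled for depth, was 10.8 with an exact 95% interval of 4.65 to 30.5 that covers counting error only, and the fitted log2 fold change was 3.35 ± 0.62 (edgeR adjusted p = 0.00023).

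**Figure D3:**
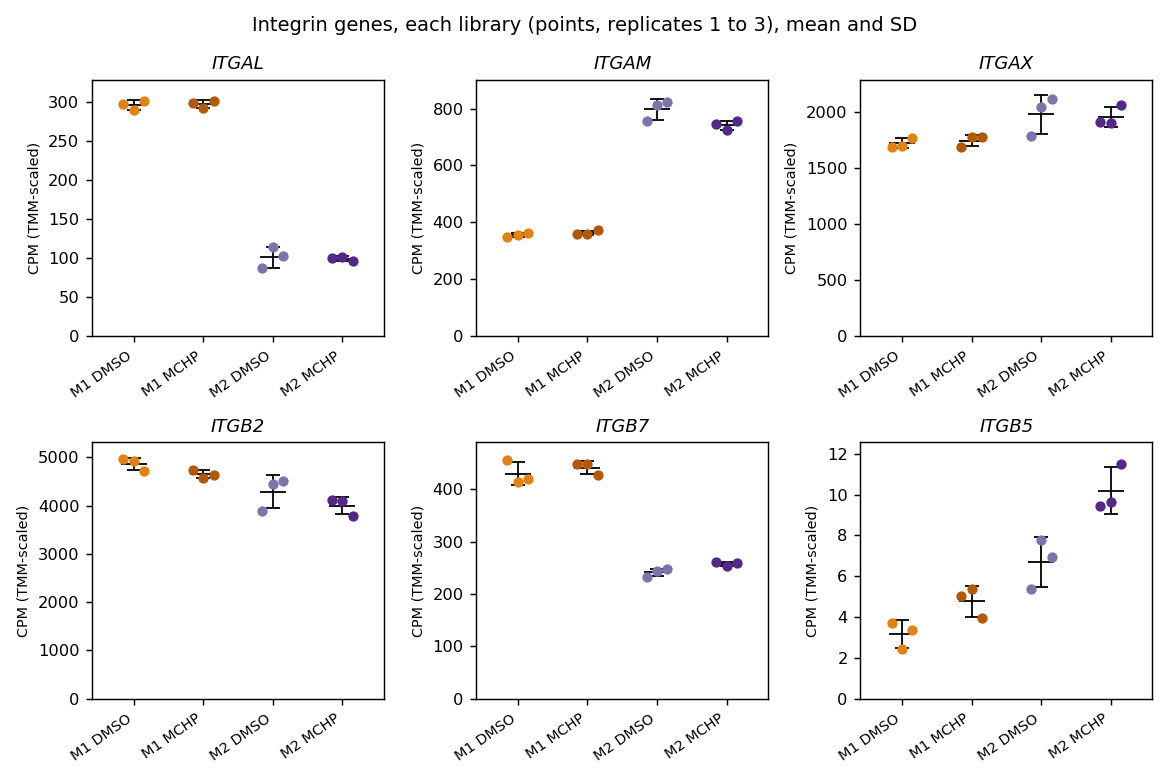
Level in TMM-scaled CPM (y axis) of 6 integrin genes in each library (points) of the 4 groups (x axis), with the mean and SD of each group. ITGAL and ITGB7 are higher in both M1 groups, ITGAM and ITGB5 in both M2 groups, and ITGAX and ITGB2 differ far less. ITGB5 is highest in M2 MCHP.

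The genes called between M1 and M2 both with DMSO and with MCHP had the same direction in both. In M1 MCHP against M2 MCHP 28 of the 44 passed, 11 higher in M1 and 17 higher in M2. Of all genes tested 44.6% passed, 21.9% higher in M1 and 22.7% lower. The groups did not overlap for 35 of the 44 and for 57% of all genes tested. The 2 comparisons share no library, though they come from 1 fit. In both, 25 genes passed in the same direction, which is 78.1% of the 32 calls with DMSO and 89.3% of the 28 with MCHP, and 0 passed in opposite directions. The matching share over all genes was not counted, so this agreement is not read as particular to these genes. Of the 25, 10 were higher in M1 and 15 higher in M2. The 7 called with DMSO alone were COL9A2, COL23A1, LAMB3, LAMC1, ITGA2, ITGA11 and ITGAD, and the 3 called with MCHP alone were COL18A1, ITGA1 and ITGA7. ITGA7 was the 1 gene of the 44 whose value had opposite signs, 0.057 with DMSO (adjusted p = 0.59) and -0.22 with MCHP (adjusted p = 0.024).

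For several of the abundant genes described above the values with DMSO and with MCHP were close. The log2 fold change, M1 over M2, was -0.68 with DMSO and -0.59 with MCHP for COL6A1, 2.07 and 2.24 for COL1A1, and -1.57 and -1.64 for COL22A1. For integrins it was 1.55 and 1.59 for ITGAL, -1.16 and -1.03 for ITGAM, 0.83 and 0.78 for ITGB7, and -0.44 and -0.64 for ITGAV. LAMA3 had 1.41 and 2.31, with 6.57, 7.63 and 8.13 CPM in M1 MCHP and 0.775, 2.03 and 1.64 CPM in M2 MCHP. Other abundant genes were less close: LAMB3 had 0.38 and 0.21, LAMC1 0.14 and 0.075, and ITGA3 -0.32 and -0.53. LAMB3 and LAMC1 were called with DMSO alone. Genes of few counts were further apart: ITGA9 had 3.35 and 2.19, and ITGA11 had -2.26 and -0.29. Whether any of these differed between DMSO and MCHP is the difference of the MCHP responses, which none of the 44 passed (LAMA3 0.89 ± 0.33, ITGA9 -1.16 ± 1.16 and ITGA11 1.97 ± 0.78, edgeR adjusted p = 0.42, 0.84 and 0.45).

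MCHP itself moved few of these genes. In M2, 3 of the 44 passed against DMSO, all higher with MCHP: COL5A3, ITGA7 and ITGB5. Of all genes tested 5.11% passed, 2.92% higher and 2.18% lower, so the share among the 44 was near that of all genes. In M1, 0 of the 44 passed, against 0.0852% of all genes (13 of 15252, 0.0721% higher and 0.0131% lower), and DESeq2 and limma-voom called 0 as well. Of the 44, 7 had an unadjusted p under 0.05, a cut for which the share of all genes was not counted.

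COL5A3 was at 266, 317 and 336 CPM in M2 DMSO and 407, 403 and 384 CPM in M2 MCHP. All 3 M2 MCHP libraries lay above all M2 DMSO libraries, and M2 DMSO replicate 1 was the lowest. The log2 fold change was 0.38 ± 0.069 (edgeR adjusted p = 0.0031), a mean of 398 against 306 CPM. It passed under 18 of 19 alternatives: without M2 DMSO replicate 1 it was 0.29, and when M2 libraries were fitted alone it was 0.37 with an adjusted p of 0.081. In M1, COL5A3 was at 146, 148 and 148 CPM with DMSO and 172, 170.3 and 176 CPM with MCHP, again without overlap. That difference, 0.23 ± 0.071, did not pass (adjusted p = 0.51), and passed in the fit of the M1 libraries alone (adjusted p = 0.00054) and without M2 DMSO replicate 1 (0.0033). The responses of M1 and M2 differed by -0.15 ± 0.10 in log2, which did not pass (adjusted p = 0.72).

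ITGB5 was at 5.36, 7.77 and 6.96 CPM in M2 DMSO and 9.43, 9.63 and 11.5 CPM in M2 MCHP, with no overlap. The log2 fold change was 0.60 ± 0.17 (edgeR adjusted p = 0.047). The call passed under 7 of 19 alternatives, with adjusted p = 0.067 without M2 DMSO replicate 1 and 0.22 without M2 MCHP replicate 3. In M1 it was at 3.72, 2.43 and 3.37 CPM with DMSO and 5.01, 5.38 and 3.93 CPM with MCHP, a log2 difference of nearly the same size, 0.59 ± 0.20, that did not pass (adjusted p = 0.65). The M1 and M2 responses differed by -0.013 ± 0.28.

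ITGA7, a laminin receptor best known from muscle, was at 38.4, 46.7 and 43.4 CPM in M2 DMSO and 54.6, 52.7 and 55.3 CPM in M2 MCHP. The M2 MCHP libraries were the 3 highest of all 12 for this gene. The log2 fold change was 0.34 ± 0.075 (edgeR adjusted p = 0.012), 0.27 without M2 DMSO replicate 1. The call was lost without M2 MCHP replicate 1 (adjusted p = 0.057), without M2 MCHP replicate 3 (0.062) and in the fit of M2 alone (0.13). In M1 the difference was 0.062 ± 0.076, and that between the responses was -0.28 ± 0.11 (adjusted p = 0.44). The gene model of ITGA7 overlaps METTL7B and BLOC1S1 on the other strand. The strand setting is not given in the sources used here, and METTL7B was at a log2 fold change of 0.52 in M2 (adjusted p = 0.12), so its part in the value of ITGA7 was not tested.

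The bases before the starts of COL5A3 and ITGB5 are shown because these 2 genes, of the 3 called, have a promoter in the table. Both are from RefSeq, build GRCh38.p14, minus strand, at chr19:10010505-10010754 and chr3:124901419-124901668. Neither holds a match to any of the 4 motifs, so no letters are in capitals.
COL5A3: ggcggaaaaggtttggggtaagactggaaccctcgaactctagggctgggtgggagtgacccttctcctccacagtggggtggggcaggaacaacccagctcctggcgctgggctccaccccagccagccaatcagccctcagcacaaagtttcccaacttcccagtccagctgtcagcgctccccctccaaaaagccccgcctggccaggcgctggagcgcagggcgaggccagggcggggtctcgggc
ITGB5: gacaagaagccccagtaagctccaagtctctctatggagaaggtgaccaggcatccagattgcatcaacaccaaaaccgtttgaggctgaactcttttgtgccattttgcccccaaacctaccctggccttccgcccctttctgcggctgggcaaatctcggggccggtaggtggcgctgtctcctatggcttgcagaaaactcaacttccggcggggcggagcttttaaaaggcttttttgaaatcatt

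The other genes did not pass in M2, and the call count depended on M2 DMSO replicate 1. Without M2 DMSO replicate 1, 10 of the 44 passed, 5 higher and 5 lower with MCHP. The share of all genes that passed also rose, from 5.11% to 11.2%. COL5A3 and ITGA7 were among them, and LAMC1 (0.14), ITGA5 (0.12) and ITGAV (0.16) also passed as higher. COL6A1 (-0.14), COL7A1 (-0.36), COL23A1 (-0.56), ITGAM (-0.14) and ITGB2 (-0.16) passed as lower. With all libraries, COL6A1 was at 2787, 2862 and 2607 CPM in M2 MCHP, inside the range of M2 DMSO, and its log2 fold change was -0.010 ± 0.081. ITGAM was at 744, 725 and 755 CPM in M2 MCHP (-0.10 ± 0.051, edgeR adjusted p = 0.28) and ITGAX at 1903, 1896 and 2055 CPM (-0.018 ± 0.061, adjusted p = 0.92).

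In M1 the differences with MCHP were small for the abundant genes. COL6A1 was at 1815, 1837 and 1813 CPM in M1 MCHP (0.077 ± 0.082), ITGAL at 298, 292 and 302 CPM (0.007 ± 0.073) and ITGB2 at 4746, 4576 and 4628 CPM (-0.066 ± 0.057), with an edgeR adjusted p of 1 for each. ITGA5, the fibronectin receptor chain, was at 844, 815 and 824 CPM, above all 3 M1 DMSO libraries (0.17 ± 0.061, adjusted p = 0.66), and it passed in the fit of the M1 libraries alone (adjusted p = 0.0018) and without M2 DMSO replicate 1 (0.013). ITGA9 had 57 counts in M1 DMSO and 23 in M1 MCHP, a ratio of 0.399 scaled for depth (exact 95% interval 0.235 to 0.659, counting error only), and the fitted difference did not pass (adjusted p = 0.72). It had enough counts for a test through M1 DMSO, the higher group here. For the difference of responses, 0 of the 44 passed, against 0.164% of all genes, 0.059% positive and 0.105% negative. There, 4 had an unadjusted p under 0.05, for which the share of all genes was not counted, and DESeq2 and limma-voom called 0. Without M2 DMSO replicate 1, COL6A1 (0.21, adjusted p = 0.023) and ITGAV (-0.20, adjusted p = 0.042) passed.

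**Figure D4:**
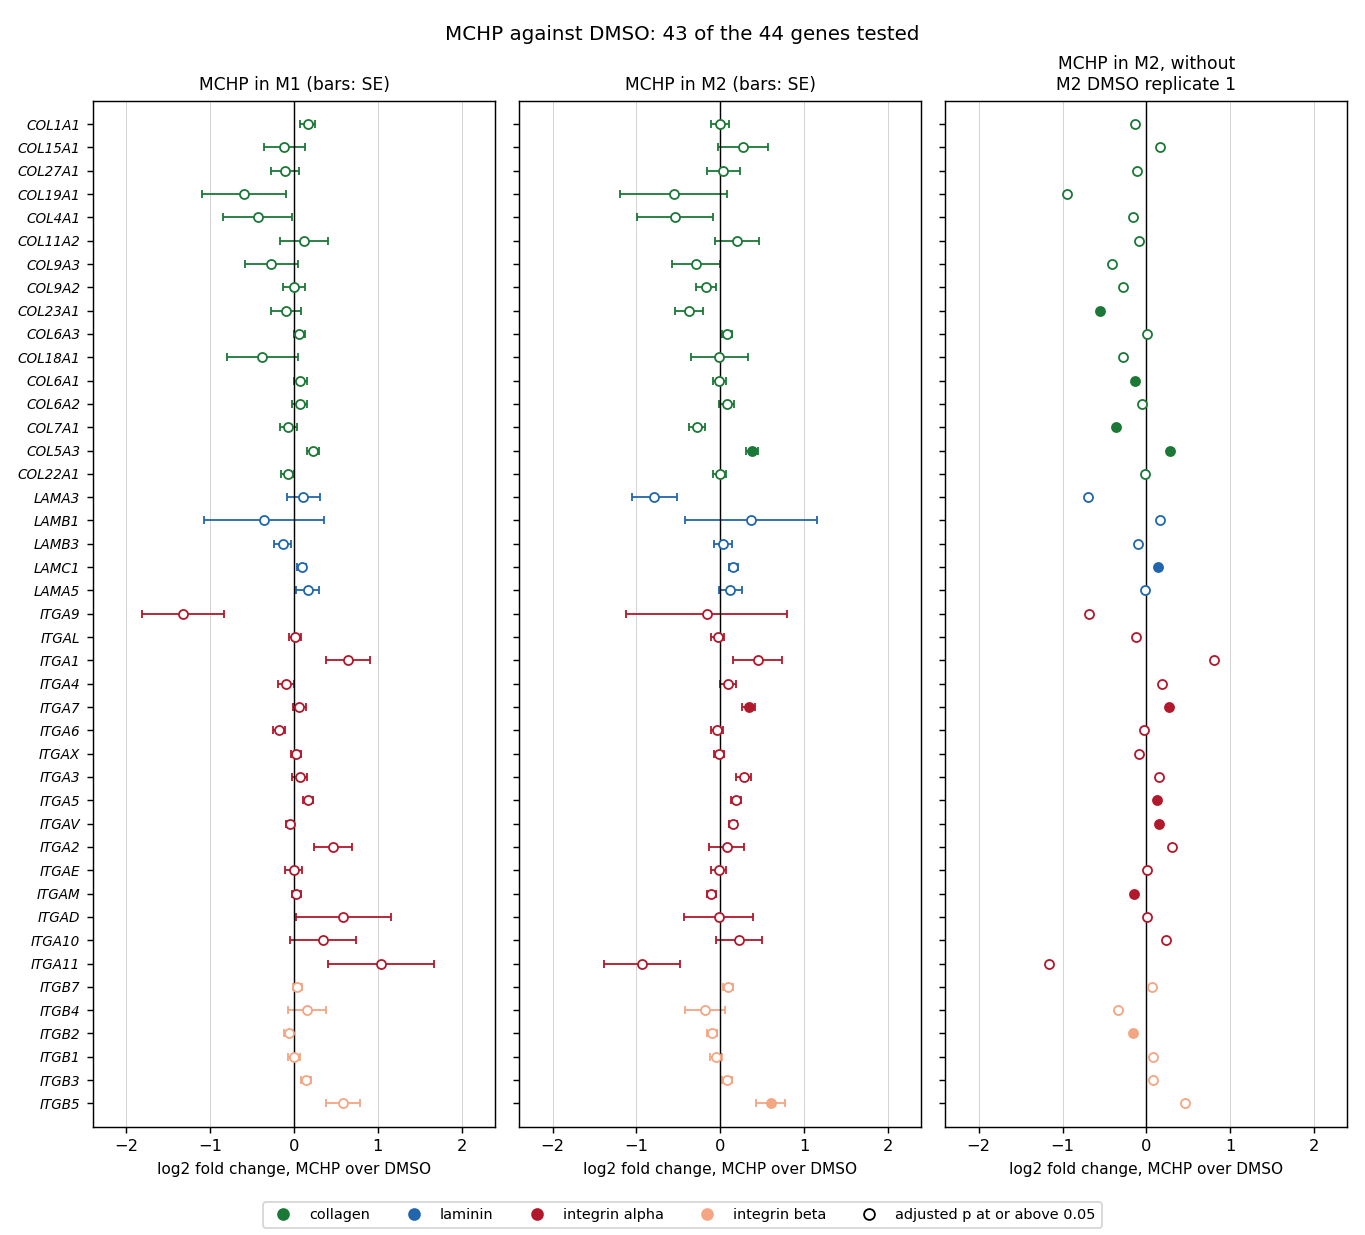
Log2 fold change of MCHP over DMSO (x axis) for 43 of the 44 genes tested (y axis) in M1, in M2, and in M2 without M2 DMSO replicate 1; bars in the first 2 panels are SE, and filled points passed at an adjusted p under 0.05. COL5A3, ITGA7 and ITGB5 are filled in the middle panel, 10 genes in the right panel and 0 in the left panel.

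Genes of the machinery around these molecules are counted here against the share of all genes called between M1 and M2 with DMSO, 42.5% (21.6% higher in M1 and 20.9% lower). Of 32 genes of integrin activation and the adhesion complex, 29 were tested; 7 were higher in M1 and 12 higher in M2 (median log2 -0.062, against -0.004 for all genes). SRC, a tyrosine kinase of adhesion sites, was at 2.26 and PTK2B (PYK2), a kinase downstream of integrins, at 1.13, both higher in M1. VCL (vinculin), which links integrins to actin, was at -0.96, and APBB1IP (RIAM), which recruits talin to integrins, at -1.12, both higher in M2. With MCHP, 0 of the 29 passed in M1, in M2 or in the difference, where 0.0852%, 5.11% and 0.164% of all genes passed. Unadjusted p was under 0.05 for 1, 5 and 1 of them, a cut for which the share of all genes was not counted. DESeq2 and limma-voom each called 1 in M2, where they called 6.53% and 5.19% of all genes. Without M2 DMSO replicate 1, 5 passed in M2, where 11.2% of all genes passed.

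Of 27 genes of collagen synthesis and crosslinking, 21 were tested, 4 higher in M1 and 6 higher in M2 (median log2 -0.15), a share near the 42.5% of all genes. P4HA2 (-0.90) and P3H1 (-0.47), which hydroxylate prolines of collagen, and PCOLCE2 (-1.82), an enhancer of procollagen cleavage, were higher in M2. MIA3 (TANGO1), which exports procollagen from the endoplasmic reticulum, was higher in M1 (0.54). With MCHP in M2, LOXL3, a lysyl oxidase of crosslinking, passed as lower: 12.8, 11.9 and 10.8 CPM in M2 DMSO and 8.20, 10.1 and 7.60 CPM in M2 MCHP, with no overlap (log2 -0.45, edgeR adjusted p = 0.037). It was the 1 call among the 21, against 5.11% of all genes. Without M2 DMSO replicate 1, 4 of the 21 passed, against 11.2% of all genes.

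Of 25 matched genes for other integrin ligands and matrix glycoproteins, 21 were tested, 2 higher in M1 and 10 higher in M2 (median log2 -0.71), against 21.6% and 20.9% of all genes. ICAM1, the ligand of ITGAL and ITGAM with beta2, was higher in M1 like ITGAL, at 4356, 4111 and 4124 CPM in M1 DMSO and 1255, 1479 and 1477 CPM in M2 DMSO (log2 1.58). HSPG2 (perlecan, -1.78), FBN2 (fibrillin 2, -0.86) and MFGE8 (an RGD ligand of alphaV integrins, -0.80) were higher in M2. With MCHP in M2, SPARC, a collagen-binding glycoprotein, passed as lower: 141, 137 and 145 CPM in M2 DMSO and 100.2, 109.5 and 92.5 CPM in M2 MCHP. The groups did not overlap (log2 -0.48, edgeR adjusted p = 0.00042). SPARC was the 1 call among the 21, against 5.11% of all genes. Without M2 DMSO replicate 1, 5 of the 21 passed, against 11.2% of all genes. In M1 SPARC was at 86.8, 93.3 and 93.3 CPM with DMSO and 66.7, 75.7 and 72.7 CPM with MCHP, also without overlap, and did not pass (log2 -0.35, adjusted p = 0.086).

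Of 16 other receptors of collagen and laminin, 14 were tested, 4 higher in M1 and 7 higher in M2 (median log2 -0.035), against 21.6% and 20.9% of all genes. The call count fell to 7, 4 higher in M1 and 3 higher in M2, without M1 DMSO replicate 2, without M2 DMSO replicate 2 or in the fit of the DMSO libraries alone. In those fits 36.9%, 39% and 37.9% of all genes passed, in that order. LAIR1, an inhibitory collagen receptor of leukocytes (1.16), and CD44 (0.65) were higher in M1, and SDC2, a syndecan (-0.68), and DAG1, the laminin receptor dystroglycan (-0.75), were higher in M2. With MCHP in M2 the syndecans SDC3 and SDC4 passed as higher, 2 of the 14 against 5.11% of all genes. Without M2 DMSO replicate 1, 5 of the 14 passed, against 11.2% of all genes. SDC3 was at 17.01, 21.2 and 25.4 CPM in M2 DMSO and 34.1, 29.2 and 33.0 CPM in M2 MCHP (log2 0.59, edgeR adjusted p = 0.0074). SDC4 was at 129, 137 and 143 and 154, 158 and 173 CPM (log2 0.25, adjusted p = 0.027).

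A few markers of other cells differed between M1 and M2, and most of each list had too few counts for a test. The summed level of 8 fibroblast markers was 12.2 to 13.4 CPM in M1 DMSO and 23.7 to 25.6 CPM in M2 DMSO; 3 of the 8 were tested, and PDGFRB (6.30 and 15.8 CPM) and FAP were higher in M2. The other marker tested did not pass. Of the same 8 genes, DCN had no count, THY1 had 2 counts and POSTN had 3 counts, while PDGFRA, LUM and FBLN1 are not given by value. The 6 endothelial markers summed to 22.9 to 24.5 CPM in M1 DMSO and 55.5 to 75.2 CPM in M2 DMSO, nearly all of it VWF, while CDH5 had 33 and KDR 74 counts over the 12 libraries.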

How the data were processed

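RNA was measured in 12 libraries, and the deposited table holds raw whole-number counts and a model length for every gene, per the file headers. Tools listed in the submitters' processing notes, without their use, are featureCounts 1.5.0-p3, HISAT2 2.0.5, fastp, DESeq2 1.20.0 and StringTie 1.3.3b; the build listed is hg38. The strand setting is not given in the sources used here. RNA was extracted with TRIzol and selected with poly-T beads, per the labels' protocols.

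Tests were run with edgeR 4.0.16 under R 4.3.3. After filterByExpr over the 4 groups, 15252 genes were kept and scaled with TMM factors. All 12 libraries were fitted with 1 mean per group (8 residual degrees of freedom), and 5 contrasts were tested two-sided with the quasi-likelihood F-test, adjusted by Benjamini-Hochberg over all genes tested at 0.05. The steps were tested on simulated data. Values are TMM-scaled CPM, with SD over 3 libraries; SE of log2 fold changes come from the same fit. Exact 95% intervals cover counting error only.

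Members and lists were chosen with earlier results of these data known. Genes given library by library were those called in an MCHP contrast and, per family, up to 6 with the smallest p between M1 and M2 and the 3 highest per kb; other genes were chosen after their values were seen or are given by group. For each pathway list, up to 4 genes with the smallest p and those called with MCHP are named. The symbols CCN1 and CCN2 did not match the table. The values of 1 gene tested are not reported here. Promoters came from a RefSeq table (GRCh38.p14), which held 30 of the 44 genes tested. The bases printed for COL6A2 and ITGAM reach 15 and 8 bases into the gene models of the deposited table.

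The labels give replicate numbers but no shared batch. The correlation of same-numbered libraries' deviations was -0.048 to 0.039 over 18 pairs, with 0 over 0.1, so replicates were not paired. Alternatives were DESeq2 size factors, library size alone, no filter, DESeq2 1.42.0, limma-voom (limma 3.58.1), a replicate block, the compared libraries alone, and each library left out in turn.

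COL9A3, COL18A1, COL19A1, LAMA5, LAMB1, ITGA1 and ITGB4 are uncertain, since each overlaps a gene with more counts. ITGA1 and its neighbour PELO lie on the same strand, and for genes on opposite strands reads cannot be told apart without a strand setting.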

Additional observations from a re-analysis of the deposited data

How the results depend on the processing

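Over all alternatives 0 values of the 44 genes reversed a call. Between M1 and M2 with DMSO 28 to 33 genes passed, and 26 of the 32 calls were kept under every alternative. With MCHP 22 to 33 passed, and 21 of the 28 were kept. The share of all genes that passed moved as well, from 35.8% to 46.2% with DMSO and from 37.7% to 52.7% with MCHP. With no filter, which tests more genes, it was 20% and 21.1%. The calls with MCHP that were lost at least once were COL18A1, ITGAX, ITGA1, ITGA7, ITGA9, ITGA4 and ITGB2. For MCHP in M1 the count of 0 became 3 in the fit of the M1 libraries alone (COL5A3, ITGA5 and ITGA6), where 2.07% of all genes passed against 0.0852%, and 0 to 2 with a library left out, 2 without M2 DMSO replicate 1 (1.02% of all genes). For MCHP in M2 the count of 3 became 6 with no filter on low counts (3.39% of all genes), 0 in the fit of the M2 libraries alone (1.26%), and 1 to 10 with a library left out: 10 without M2 DMSO replicate 1 (11.2%), and 1 without M2 MCHP replicate 1 (2.44%) or replicate 3 (2.49%), against 5.11% with all libraries. Of these 3 calls 0 were kept under every alternative. For the difference of responses the count of 0 ranged from 0 to 2, with 2 without M2 DMSO replicate 1 (2.46% of all genes, against 0.164%). The cause of these changes was not tested. With the replicate block 32, 28, 0, 2 and 0 genes passed in the 5 contrasts, in the order M1 against M2 with DMSO, with MCHP, MCHP in M1, MCHP in M2 and the difference; ITGB5 was lost (adjusted p = 0.071). The fit of the compared libraries alone does not exist for the difference, which uses all 12. Over all genes in M2, scaling by library size alone gave 306 higher and 465 lower calls, against 446 and 333. Counts limit LAMB1, ITGA9, COL19A1, ITGAD, ITGA11, COL4A1, COL18A1, COL9A3, ITGA1 and ITGA10 most, with 72 to 402 counts over the 12 libraries.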
